A study of Mus musculus with 2 samples.

Results

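The heart arrays were examined for 10 genes: 7 small heat shock protein genes (Hspb1, Hspb2, Hspb3, Hspb6, Hspb7, Hspb8 and Cryab), the inducible HSP70 genes Hspa1a and Hspa1b, and the cochaperone gene Bag3. They were chosen by name, as all probe sets that the array annotation pairs with 1 of these symbols and no other. This gave 19 probe sets for the 10 genes, out of 34945 probe sets and 18193 genes named in this way. RNA came from hearts of male C57BL/6J mice, 10 weeks old, taken 3 days after the left anterior descending coronary artery had been tied off for good (infarct) or after an operation that left it open (sham). RNA from 3 mice was mixed per group and each pool was hybridised to 1 GeneChip array, so that there were 2 arrays in all. A group thus had 1 array, so that the groups could not be tested against each other and the spread between mice is unknown. The labels do not separate infarcted from remote muscle.

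Heat shock proteins are chaperones that keep other proteins folded. The small heat shock proteins share an α-crystallin domain, assemble into oligomers and hold unfolding proteins without using ATP. HSP70 proteins bind and release such clients in a cycle that is driven by ATP, and BAG3 accelerates the release and links HSP70 and HSPB8 to autophagy. In cardiac muscle this system serves desmin, filamin and titin at the Z-disc, and mutations of CRYAB and BAG3 cause myopathies. Transcription of the inducible genes is activated by heat shock factors, which bind repeats of the letters GAA and TTC in DNA.

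Hspa1a and Hspa1b had the largest differences of the 10 genes, at 2.76-fold and 3.40-fold higher in the infarct pool. Hspb1, which protects actin filaments, and Hspb7, a small heat shock protein of heart and muscle, were 1.59-fold and 1.38-fold higher. Cryab, Hspb2, Hspb3, Hspb6, Bag3 and Hspb8 differed by 1.22-fold or less in either direction. Values are RMA values on the log2 scale, 1 per probe set, and a difference is infarct minus sham. A gene stands for its brightest probe set, and it was compared if this probe set was at or above the array's median (6.36 in sham, 6.35 in infarct) on at least 1 array. All 10 genes met this rule, as did 11961 genes of the whole array. A difference of 1 on the log2 scale is 2-fold. By that measure 2 of the 10 genes were higher and 0 were lower, where 3.73% of all genes compared were higher and 1.26% were lower (4.99% in either direction). Calls in the whole array depended on the zero of the scale: 446 genes were higher and 151 lower as deposited, 188 and 656 after centring on housekeeping genes, and 962 and 40 after centring on hybridisation controls. At 1.5-fold, 3 of the 10 genes were higher, beside 10.3% of all genes, and 0 were lower, beside 6.32%. As deposited, 6 of 10 were above 0 (49.5% of all genes) and 4 below (49.8%), and the median difference was 0.15, where that of all genes compared was 0.

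Differences of probe sets for 1 gene scattered with a pooled SD of 0.23, estimated from the 5190 genes that had several bright probe sets. It measures probes only and holds no variation among animals. Hspa1a, Hspa1b, Hspb1, Hspb7 and Hspb8 differed from 0 by more than it, as did 52.9% of all genes. A difference past this SD is therefore common on these arrays. In whole hearts a smaller number of cells of a type and a smaller amount of RNA per cell cannot be told apart.

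**Figure D1:**
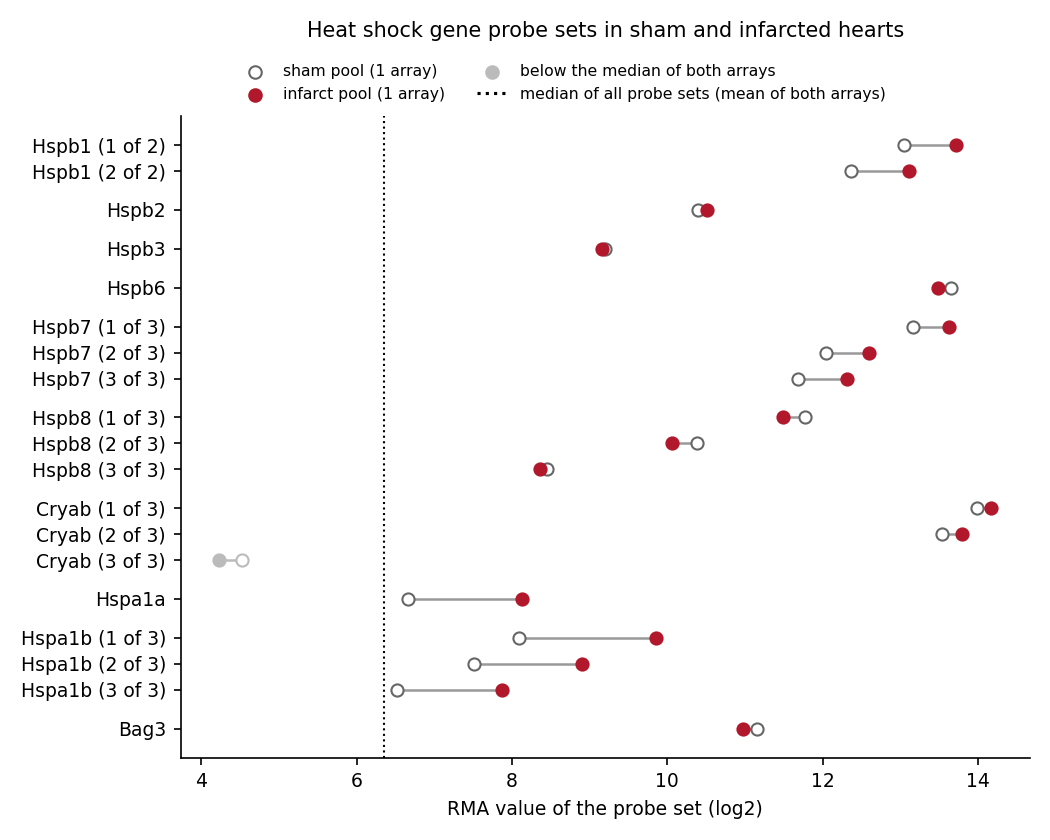
RMA values (log2) of all 19 probe sets of the 10 genes for sham (open circles) and infarct (filled circles), 1 array each, numbered within a gene from the brightest. The dotted line is the median of all probe sets, and 1 Cryab probe set (grey) lay below it on both arrays. The lines between the circles are longest for Hspa1a and Hspa1b, and those of Hspb3, Hspb6, Hspb8, Bag3 and the grey Cryab probe set run to the left on this deposited scale. After centring on the hybridisation controls, the brightest probe set of each of the 10 genes lay above 0.

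HSP70 is the central chaperone of the cytosol, and Hspa1a and Hspa1b encode its stress-inducible form. Hspa1b was measured by 3 probe sets. Its brightest gave 8.09 in sham and 9.86 in infarct, a difference of 1.77. The other 2 gave 7.52 and 8.90 (difference 1.38), and 6.52 and 7.87 (difference 1.35). The only probe set of Hspa1a gave 6.66 in sham and 8.13 in infarct, a difference of 1.47. All 4 probe sets were therefore higher after infarction by 2-fold or more, beside 3.52% of all probe sets bright enough. Among the 11961 genes, Hspa1b ranked at number 94 from the highest and Hspa1a at number 154. The difference of Hspa1b exceeded that of Hspa1a by 0.30, which is 0.93 times the SD expected for 2 probe sets, and that of Hspb1 by 1.10. In the sham pool 52.7% to 74.6% of all probe sets were dimmer than these 4 probe sets, with 74.6% for the brightest of Hspa1b. In the infarct pool 71.4% to 91.0% were dimmer.

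Hspa1a and Hspa1b are close copies that lie next to each other on chromosome 17, with 0 RefSeq genes between them. A probe set named for either may also bind the transcript of the other, and how the signal was divided was not tested. The 4 probe sets are thus not independent evidence for 2 genes. The bases upstream of their starts are printed here because they show how alike the copies are and where the heat shock factor letters lie. Each line gives 250 bases before the transcription start, 5′ to 3′ on the minus strand, from RefSeq (assembly GRCm38.p6). Capitals mark the motif GAANNTTC, the 2-unit form of the heat shock element.
Hspa1a (chr17:34972157-34972406): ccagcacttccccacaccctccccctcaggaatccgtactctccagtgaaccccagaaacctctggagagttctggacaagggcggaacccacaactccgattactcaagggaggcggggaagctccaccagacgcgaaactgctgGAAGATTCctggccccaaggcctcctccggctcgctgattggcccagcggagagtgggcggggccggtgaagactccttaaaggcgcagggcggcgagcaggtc
Hspa1b (chr17:34959239-34959488): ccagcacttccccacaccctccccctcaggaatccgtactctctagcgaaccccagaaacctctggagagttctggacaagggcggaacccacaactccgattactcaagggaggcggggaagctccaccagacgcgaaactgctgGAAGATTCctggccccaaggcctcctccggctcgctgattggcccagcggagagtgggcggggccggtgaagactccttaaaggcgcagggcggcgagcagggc
The stretches were identical at 247 of 250 bases (98.8%). Counted from 1 at the first base printed and from Hspa1a to Hspa1b, the bases that differed were C44T, T47C and T249G. The motif lay from -104 to -97 relative to the start in both genes.

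Among the small heat shock proteins, Hspb1 and Hspb7 were higher after infarction by every probe set, and their brightest probe sets stayed above 0 under each scaling tried. Hspb1 had 13.04 in sham and 13.71 in infarct (difference 0.67), and its other probe set had 12.37 and 13.11 (difference 0.74). Hspb1 thereby ranked at number 996 from the highest of the 11961 genes. The cardiovascular small heat shock protein gene Hspb7, whose product binds filamin C, had 13.17 in sham and 13.63 in infarct (difference 0.46). Its other probe sets gave differences of 0.55 (12.05 and 12.60) and 0.63 (11.68 and 12.31). For both genes the probe sets disagreed by less than the SD of 0.23, and all 5 lay above 0. The brightest probe set gave the smallest difference in each case. These probe sets were among the brightest of the array, with 0.30% of all probe sets brighter than Hspb1 and 0.35% brighter than Hspb7 in the infarct pool.

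Cryab, which encodes αB-crystallin, the small heat shock protein that binds desmin, had a small difference at a high signal. Its brightest probe set, which 0.0931% of all probe sets exceeded in the infarct pool, gave 13.99 in sham and 14.17 in infarct, a difference of 0.18. Another gave 13.54 and 13.79, a difference of 0.25. A further probe set named Cryab gave 4.52 and 4.23 (difference -0.29), lay below the median of both arrays and was not counted. Cryab and Hspb2 overlap in the RefSeq gene table. Hspb2, which encodes a partner of the myotonic dystrophy protein kinase, had 10.39 in sham and 10.51 in infarct (difference 0.11). The differences of Cryab and Hspb2 lay 0.062 apart, within the SD between probe sets.

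Hspb3 and Hspb6, also expressed in muscle, had differences smaller than that SD. Hspb3, whose product forms a complex with that of Hspb2, had 9.20 in sham and 9.17 in infarct (difference -0.039). Hspb6, which encodes HSP20, a target of cyclic nucleotide dependent kinases, had 13.65 and 13.49 (difference -0.16). Both genes rest on 1 probe set.

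Hspb8 and Bag3, whose proteins act as a complex, had the lowest differences of the 10 genes, below 0 as deposited and above 0 after centring on the hybridisation controls. Hspb8 had 11.77 in sham and 11.49 in infarct (difference -0.28), and its other probe sets gave -0.32 (10.38 and 10.06) and -0.10 (8.46 and 8.36). All 3 of its probe sets were below 0 on the deposited scale. Bag3 had 11.16 in sham and 10.97 in infarct (difference -0.19), which is smaller than the SD between probe sets. In the whole array, 20.6% of genes had a lower difference than Hspb8 and 29.2% had a lower one than Bag3. The gap between Hspb1 and Hspb8 was 0.95, or 1.93-fold in relative terms. That gap is 2.95 times the SD expected for 2 probe sets (0.32).

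**Figure D2:**
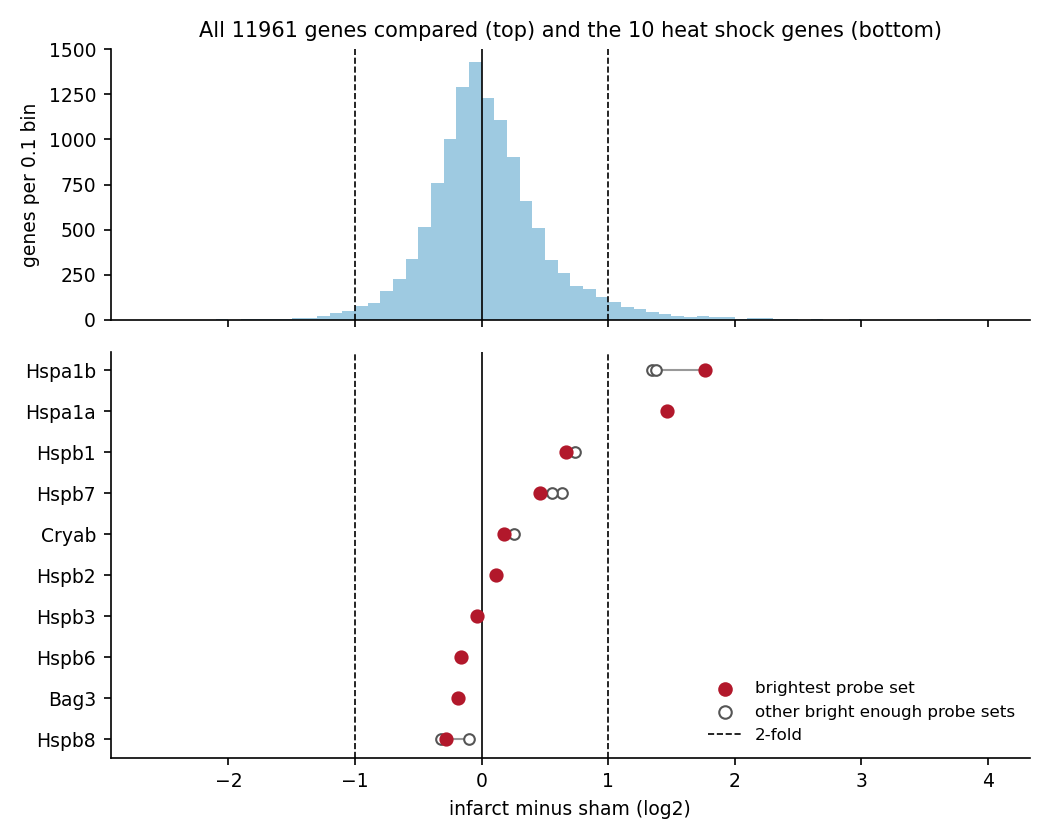
Top: number of genes per bin of 0.1 against the difference (infarct minus sham, log2) for all 11961 genes compared. Bottom: the same difference for the 10 genes, with the brightest probe set filled, other probe sets bright enough open and dashed lines at 2-fold. Hspa1b (1.77) and Hspa1a (1.47) lay outside the dashed lines, and the other 8 genes lay between -0.28 (Hspb8) and 0.67 (Hspb1).

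The choice of zero set the sign of 6 of the 10 differences, whereas their order did not depend on it. The 9 housekeeping genes had a mean difference of 0.38, with single genes from -0.44 to 1.12. The hybridisation controls, 18 probe sets for spiked bacterial transcripts, had a mean difference of -0.32, and the 27 poly-A control probe sets had one of 0.035. Centred on the housekeeping genes, Hspa1b differed by 1.39, Hspa1a by 1.09, Hspb1 by 0.29 and Hspb7 by 0.083, and the other 6 genes lay below 0, from -0.66 (Hspb8) to -0.20 (Cryab). Centred on the hybridisation controls, all 10 genes lay above 0, from 0.036 (Hspb8) to 2.08 (Hspa1b). Hspa1a, Hspa1b, Hspb1 and Hspb7 lay above 0 under all 6 other scalings, and only Hspa1a and Hspa1b reached 2-fold in any of them. The order of the 10 genes was the same under all 6. Centring on 1 value per array cannot change that order, but quantile normalization and removal of a loess trend could have.

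**Figure D3:**
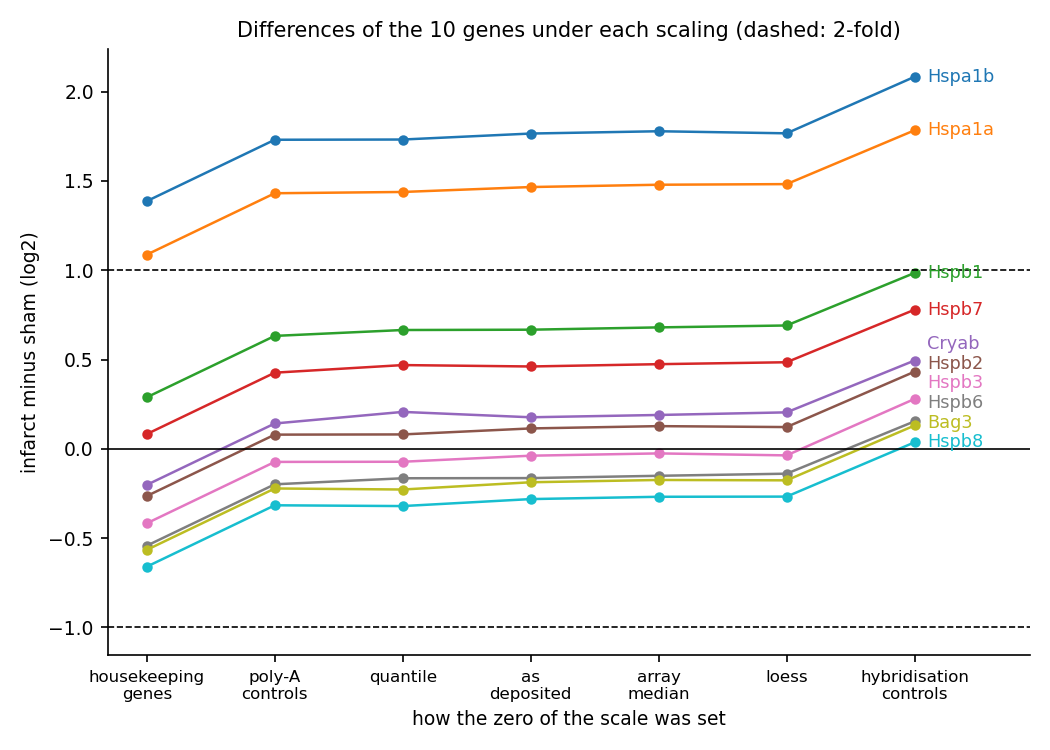
Difference (infarct minus sham, log2) of each of the 10 genes as deposited and under 6 other ways of setting the zero of the scale, 1 line per gene to guide the eye and dashed lines at 2-fold. Hspa1a and Hspa1b stayed above the upper dashed line throughout, Hspb1 and Hspb7 stayed above 0, and the other 6 genes lay on both sides of 0 between the housekeeping genes at the left and the hybridisation controls at the right.

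Heat shock element letters were searched in the RefSeq promoters of the 10 genes (250 bases before the start and 50 after it). A promoter was found for 8 of them, in 9 windows because Hspb6 had 2 starts. Cryab and Hspb2 had no entry. The motif GAANNTTC, which reads the same on both strands, was in 7 of the 9 windows and in 7.86% of all 32851 promoters. The other 2-unit form, TTCNNGAA, was in none of the 9 and in 8.52% of all, and the form of 3 units, which adds a further unit to GAANNTTC on either strand, was in none and in 0.60% of all. Hspa1a and Hspa1b count as separate windows here although they are near copies. Of the 8 matches 6 lay before the start, in Hspa1a, Hspa1b, Hspb1, Hspb3 and the second start of Hspb6, while those of Hspb8 and Bag3 lay after it. Hspb1 alone held 2 matches, from -117 to -110 and from -97 to -90, and its upstream bases are printed on the plus strand, with the matches in capitals, to set beside those of the HSP70 genes.
Hspb1 (chr5:135887669-135887918): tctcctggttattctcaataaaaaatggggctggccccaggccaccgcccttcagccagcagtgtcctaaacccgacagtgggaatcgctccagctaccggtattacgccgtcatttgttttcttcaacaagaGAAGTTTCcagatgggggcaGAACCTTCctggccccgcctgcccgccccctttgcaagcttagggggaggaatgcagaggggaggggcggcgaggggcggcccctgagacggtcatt
On the deposited scale Hspb3 (-0.039) and Hspb6 (-0.16, at its second start) held a match upstream, and Hspb7 (0.46) held none. After centring on the hybridisation controls the differences of Hspb3 and Hspb6 were 0.28 and 0.15, and after centring on the housekeeping genes they were -0.42 and -0.54. Whether the motif bears on the differences was not tested. In the whole array the 676 genes compared that held GAANNTTC had a median difference of -0.0075, and the 8955 without it had one of 0. Of the former 5.18% were at least 2-fold higher and of the latter 3.55%, on the deposited scale and with Hspa1a and Hspa1b counted among the former. For TTCNNGAA these shares were 3.64% with it and 3.67% without, and for the form of 3 units they were 1.69% (1 of 59 genes) and 3.68%. A match of these letters is no evidence that a factor was bound.

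Of the other chaperone genes, the HSP90 gene Hsp90aa1 and the HSP40 genes Dnajb1 and Dnaja1 were among the higher ones. Medians of the 8 pathway lists lay between -0.16 (sarcomere and desmin clients) and 0.27 (chaperonins), beside 0 for all genes compared. The lists of partners, clients and heat shock factors include genes that are not chaperones. Differences here are on the deposited scale, and one between -0.32 and 0.38 has another sign under one of the 2 control centrings. Among the 14 genes listed for HSP90 and its cochaperones 2 were at least 2-fold higher. These were Hsp90aa1, the stress-inducible cytosolic HSP90 (11.28 in sham, 12.29 in infarct, difference 1.00, with its 3 bright probe sets from 1.00 to 1.17), and Fkbp5, an immunophilin gene induced by glucocorticoids (8.29 and 9.46, difference 1.17, and 0.62 by its other bright probe set). After quantile normalization or centring on the poly-A controls 1 gene of the list was at least 2-fold higher and 1 was 2-fold lower, after centring on the housekeeping genes these were 0 and 1, and as means over their probe sets no gene of the list was 2-fold apart. The related immunophilin gene Fkbp4 was 1.98-fold lower (11.18 and 10.20, difference -0.99), by its only probe set above the median. The list had 9 genes above 0 and 5 below, and a median of 0.15.

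J domain proteins deliver clients to HSP70, and 8 of the 14 listed were above 0 and 6 below, with a median of 0.10. Dnajb1 (difference 0.77) and Dnaja1 (0.75), which encode the major HSP40 proteins of the cytosol, were the highest, followed by Dnajb11 (0.50). All 6 probe sets of these genes lay above 0, from 0.30 to 0.77. Mitochondrial Dnaja3 was the lowest (-0.39). Of the 13 other HSP70 and HSP110 genes none was 2-fold apart, 9 were above 0 and the median was 0.18. Hspa1l, an HSP70 gene expressed mainly in testis, was 0.66 higher but below the median of the sham array, the endoplasmic reticulum form Hspa5 was 0.61 higher, and Hspa12a differed by -0.81 (8.25 in sham and 7.44 in infarct). The constitutive HSP70 gene Hspa8, named after its values were seen, differed by 0.18 at its brightest probe set. Its other bright probe sets gave 0.38 (11.80 in sham and 12.18 in infarct), 0.44 (12.96 and 13.40) and 1.43 (6.38 and 7.81). The last of these was close to the array median in sham.

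The 10 chaperonin genes had the highest median of these lists, 0.27, with 8 above 0 and none at 2-fold. Cct8 (0.51), Cct2 (0.49) and Cct3 (0.46), subunits of the ring that folds actin and tubulin, were the highest, and the mitochondrial cochaperonin gene Hspe1 (-0.23) was the lowest. Of the 9 BAG and autophagy partner genes 5 were above 0, with a median of 0.0066. Flnc, which encodes the filamin C that BAG3 helps to clear, was the highest (0.70, from 10.25 to 10.95), and Bag1 (-0.28) and Bag6 (-0.17) were the lowest. Synpo2, named after its values were seen, differed by -0.094 at its brightest probe set. Its other bright probe sets gave -0.21 and -1.47, the last with 8.06 in sham and 6.59 in infarct. Of the 7 sarcomere and desmin client genes 5 were below 0 (median -0.16), with Tcap (-0.85) and Ldb3 (-0.73) the lowest. The other bright probe sets of Ldb3 gave -0.11 and -0.23. Flna (1.01), a filamin gene other than the filamin C gene Flnc, was the highest of this list. The desmin gene Des, named after its values were seen, differed by 0.51 at its brightest probe set. After quantile normalization, or centring on the poly-A controls or the housekeeping genes, no gene of this list was at least 2-fold higher. With the housekeeping genes as zero, 2 genes of the list were at least 2-fold lower. Of the other genes listed with the small heat shock proteins, Cryaa (-0.23) and Hspb11 (0.21) were bright enough, and Hspb9 and Odf1 were below the median of both arrays. Whether each of these encodes an α-crystallin domain was not checked. Of the heat shock factor genes only Hsf4 was bright enough, with 6.41 in sham and 6.37 in infarct, close to the array medians (difference -0.036). Hsf2 and Hsf5 were below the median of both arrays, and Hsf1 was not analysed here. Hsbp1, which encodes a protein that binds heat shock factor, differed by -0.10. The median of each of these 8 lists was negative with the housekeeping genes as zero and positive with the hybridisation controls as zero.

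**Figure D4:**
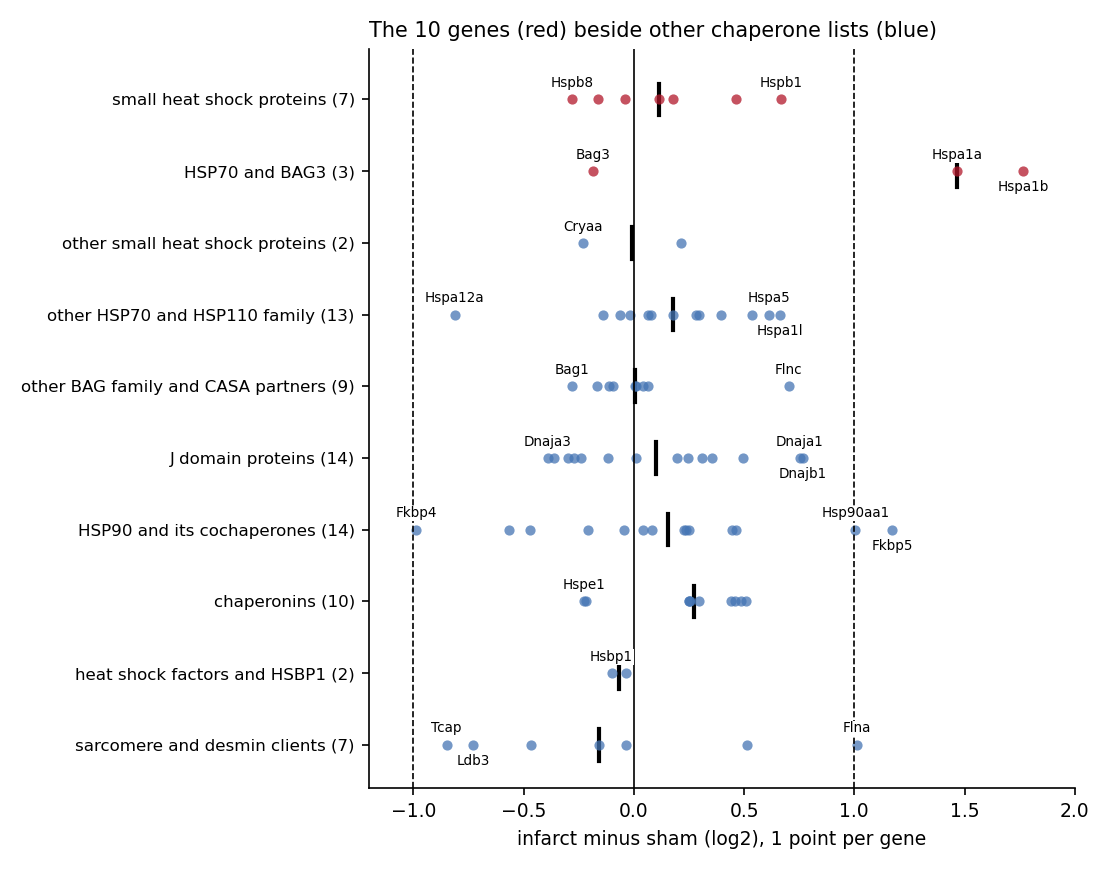
Difference (infarct minus sham, log2) of the genes bright enough in each list, 1 point per gene. The 10 genes are in red, and the lists of other chaperones, partners, clients and heat shock factors are in blue. Brackets give the number of genes, black bars are list medians and dashed lines mark 2-fold. Hspa1a and Hspa1b lay furthest to the right, and Fkbp5, Hsp90aa1 and Flna were the other genes past 2-fold on the deposited scale.

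Markers of other cells also differed between the pools. All 9 cardiomyocyte markers were bright, with mean log2 levels of 14.34 for sham and 14.19 for infarct, so the labelled tissue held its defining genes. Their median difference was -0.13, with 8 of 9 below 0, and it was 0.19 after centring on the hybridisation controls. On the deposited scale all 8 macrophage markers were higher after infarction (mean level 9.44 and 10.36, median difference 0.85, 4 at 2-fold), as were all 4 neutrophil markers measured (7.44 and 8.65, median 1.33, 3 at 2-fold). The neutrophil marker Cxcr2 (0.45) was below the median of the sham array and was compared only through its infarct value. The 6 fibroblast markers had a median of -0.042, with 3 below 0 and Postn highest at 1.28. Smooth muscle markers had one of -0.14 (5 genes, mean level 8.46 and 8.47), and endothelial markers one of 0.24 (5 genes, 9.48 and 9.64). The smooth muscle markers were split, from -0.77 (Myh11) to 0.80 (Tagln), with 2 above 0 and 3 below. Of the 6 skeletal muscle markers the myosin genes Myh1 and Myh4 were below the median of both arrays. Myh2 differed by -0.38 and Pvalb by -0.094. Tnni2 (1.16, and 0.44 by its other bright probe set) and Tnnt3 (1.59) were at least 2-fold higher. Tnnt3 was below the median of the sham array, so that it was compared only through its infarct value. The part of these cells in the differences of the heat shock genes was not tested.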

How the data were processed

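Frozen hearts were the source of total RNA (ISOGEN, then a column kit), which was labelled with biotin for GeneChip arrays. The values deposited by the authors are on the log2 scale and the labels name RMA, a method that corrects background, normalizes arrays together and summarises the probes of a set. The version of RMA is not given in the sources used here. Both arrays have nearly the same distribution of values (sorted values differ by at most 0.11), so a difference in total mRNA cannot be seen. Precision is limited by there being 1 array per group.

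Of 45101 probe sets, 34945 have 1 gene symbol, 932 several, 9160 none and 64 are controls. Genes were taken from the first kind only, and the controls served for centring. Named genes are the 10 members and, of each of 8 pathway lists, the 3 with the largest difference, the most opposite in sign and any at 2-fold. The members and lists were chosen with earlier results of these data known. Alternatives were 6 scalings, other choices of the probe set, other filters and other thresholds. The loess span was 0.4. Counting was tested on simulated data. Python 3.11.15, numpy 2.4.6, pandas 2.3.3, statsmodels 0.14.6 and matplotlib 3.10.9 were used. No coordinates of the probes are given, and promoters come from RefSeq.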

Additional observations from a re-analysis of the deposited data

How the results depend on the processing

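The count of genes at least 2-fold apart was 2 of 10 as deposited and in each of the 6 other scalings. It was 1 of 9 with the filter at the 75th percentile, which Hspa1a did not reach, 4 of 19 when probe sets were counted in place of genes (3 of Hspa1b and 1 of Hspa1a), and 3 at a threshold of 1.5-fold. The median difference of the genes, 0.15 as deposited, was -0.23 after centring on the housekeeping genes and 0.46 after centring on the hybridisation controls, since these settings shift all genes by -0.38 and 0.32. It was 0.40 when the mean replaced the median. In the other settings it lay between 0.080 and 0.16. Of the single genes' differences under the alternatives, 86 moved by no more than the SD between probe sets and 22 by more. These counts do not measure robustness. A change of filter leaves a gene's value as it is, as does the choice of probe set for a gene with 1 probe set. Centring on the housekeeping genes or the hybridisation controls moved every gene by more than this SD. None of the 2-fold differences changed sign. Hspa1a had no value at the 75th percentile, and Cryab had none by its dimmest probe set. In the whole array, 446 genes were higher and 151 lower by 2-fold or more as deposited, 188 and 656 with the housekeeping genes as zero, and 962 and 40 with the hybridisation controls. No paired analysis was possible because each group has 1 array, and for the same reason no array could be left out.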

Other observations

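Grouped by compartment, the other chaperones lay on different sides of 0 on the deposited scale. This grouping was made after the values were seen. All 5 mitochondrial chaperone genes (Hspa9, Hspd1, Hspe1, Trap1 and Dnaja3) lay below 0, from -0.57 for Trap1, the mitochondrial HSP90, to -0.14 for Hspa9, the mitochondrial HSP70. Their median was -0.23. All 8 subunit genes of the cytosolic chaperonin lay above 0, from 0.25 to 0.51, with a median of 0.37. Of 7 chaperone genes of the endoplasmic reticulum 6 lay above 0, with a median of 0.46. The highest was Hspa5 (0.61), followed by Hyou1 (0.54), and Dnajb9 was lowest (-0.27). The sign of a value between the means of the hybridisation controls (-0.32) and the housekeeping genes (0.38) depended on which of them was taken as zero. The medians of the mitochondrial genes and of the chaperonin lay in that range. The median of the endoplasmic reticulum genes lay outside it. So did the brightest probe sets of Trap1, Dnaja3, Hspa5, Hyou1, Dnajb11 (0.50), Hsp90b1 (0.46) and Hspa13 (0.40). Of the chaperonin genes, Cct8 (0.51), Cct2 (0.49), Cct3 (0.46) and Cct5 (0.44) lay outside the range by their brightest probe sets. Tcp1, Cct4, Cct6a and Cct7 lay inside it. Dimmer probe sets, still bright enough, of Hspa5 (0.063), Hyou1 (0.082), Hsp90b1 (0.34), Hspa13 (0.30), Cct2 (0.30) and Cct3 (0.033) lay inside the range. The other bright probe sets of Trap1 (-0.44) and Dnaja3 (-0.55) lay outside it.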
